A study of Mus musculus with 66 samples.

Results

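The genes described here are the core of the cytoplasmic machinery that destroys β-catenin, the kinases that the compound CHIR99021 targets, and close partners of β-catenin. They were chosen by gene symbol from the table of RNA levels: Gsk3a, Gsk3b, Ctnnb1, Apc, Axin1, Csnk1a1, Tcf7l2, Dvl2 and Ctnnbip1. All 9 genes were found, as 10 transcripts of the 9481 listed under 8978 gene symbols, because Csnk1a1 is listed as 2 transcripts, and all 10 were tested. Gsk3a and Gsk3b alone among them are the direct targets of CHIR99021, and Tcf7l2, Dvl2 and Ctnnbip1 act beside the destruction complex rather than in it.

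Mouse small intestinal organoids carrying an Lgr5 GFPDTR/+ reporter allele, which leaves 1 unmodified copy of Lgr5, were grown in 3 media. ENR holds EGF, Noggin and R-Spondin and gives a mixed culture. CV is ENR with 3 µM CHIR99021 and 1 mM valproic acid and enriches for stem cells. EN is ENR without R-Spondin and enriches for enterocytes. RNA and ATAC libraries numbered 4 per culture, and the libraries analysed for each of 3 histone marks numbered 3 per culture. CHIR99021 inhibits Gsk3 and valproic acid inhibits histone deacetylases, and since CV received both, their parts in any difference from CV cannot be told apart. Between EN and CV, R-Spondin differs as well, and the paper gives CV a longer time in its medium than EN. Their parts in a difference between EN and CV cannot be told apart from those of the compounds.

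In the absence of a Wnt signal, Apc and Axin1 hold β-catenin (Ctnnb1) so that casein kinase 1α (Csnk1a1) and then Gsk3 can phosphorylate it, which marks it for ubiquitination and degradation. Wnt ligands, whose receptors R-Spondin keeps at the cell surface, recruit Dishevelled proteins such as Dvl2 and stop this, and β-catenin then acts with Tcf7l2 in the nucleus, where Ctnnbip1 can block their contact. The pathway maintains stem cells at the base of intestinal crypts. It is controlled largely by phosphorylation and protein stability, which RNA levels do not measure.

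The RNA libraries held between 5630951 and 8859744 expected counts over all transcripts other than spike-ins. Between EN and CV the markers differed as the labels say: 5 of 5 stem cell transcripts and 7 of 7 proliferation transcripts were lower in EN than in CV, and 6 of 6 enterocyte transcripts were higher (edgeR's quasi-likelihood test, adjusted p under 0.01). Markers of goblet cells (4 of 5 higher, 1 lower), enteroendocrine cells (3 of 3 higher) and tuft cells (3 of 3 higher) also differed between EN and CV, while of 4 Paneth cell transcripts 2 were higher and 2 lower. Against ENR these RNA markers did not show stem cell enrichment in CV: 4 of 5 stem cell transcripts were lower in CV and none was higher. Among those lower were Olfm4 (log2 -6.78) and Lgr5 (log2 -0.52), and 5 of 7 proliferation transcripts were lower. Fewer of them were lower on other scales, given below. The paper reports from imaging of the reporter that Lgr5-positive cells dominated CV organoids. It also reports stem cell markers as enriched in CV and depleted in EN, in mRNA and in protein. Those levels are shown there against the row mean, not against ENR alone. In CV against ENR, 5 of 5 goblet, 3 of 3 enteroendocrine and 3 of 3 tuft cell transcripts were also lower. In EN against ENR, 5 of 5 stem cell, 7 of 7 proliferation and 4 of 4 Paneth cell transcripts were lower, and 6 of 6 enterocyte, 4 of 5 goblet, 3 of 3 enteroendocrine and 3 of 3 tuft cell transcripts were higher. Of 6 non-epithelial transcripts tested, Vim (23.3 CPM in EN) and Ptprc (2.64 CPM) were higher and Des lower in EN, and Col1a2 and Acta2 were at 5 counts or fewer in every library. In whole organoids, fewer cells of a type and less RNA per cell cannot be told apart, and the part of cell composition in the differences below was not tested. Nothing in the labels says that the 4 libraries of a culture came from separate cultures, so p-values measure the spread between these libraries.

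The scale chosen sets the direction of small differences. Differences are given as log2 ratios of CPM, counts scaled to a common library size after TMM normalization, on which the median of all transcripts was -0.08 between EN and CV. That median was -0.50 on library totals, -0.49 on spike-in counts, -0.34 on TPM (a relative abundance that accounts for transcript length) and 0.62 on the deposited mRNA copy numbers. On these 4 scales in turn, 3, 2, 2 and 1 of the 5 stem cell transcripts were lower in CV than in ENR, and none higher. Of the 7 proliferation transcripts 4, 2, 2 and 1 were lower, and 1 was higher on TPM. Relative to the median of all transcripts on each scale, Gsk3a lay between 0.91 and 1.12 higher in EN than in CV on these 5 scales, Tcf7l2 between 0.95 and 1.18 higher, and Gsk3b between 0.04 and 0.11 higher. TMM, library totals and spike-in counts rescale the same counts, so their values agree by construction once the median is subtracted. They are not separate support. Read against the other transcripts, the differences of Gsk3a, Tcf7l2 and Gsk3b between EN and CV depended little on the scale. Of the other members, Ctnnb1 went from 0.19 on TPM to 0.46 on copies, and the Csnk1a1 transcript NM_146087.2 turned from -0.09 to 0.10. Whether the median transcript itself changed was not tested.

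Of the 10 member transcripts, 6 were higher and 2 lower in EN than in CV on the TMM scale, where 35.2% of the 9288 transcripts tested were higher and 41.2% lower. Between CV and ENR, 1 was higher and 2 lower in CV, against 30.2% and 29.8% of all transcripts. Between EN and ENR, 6 were higher and 3 lower in EN, against 35.5% and 37.2%. These splits turned with the scale. Between EN and CV, 2 were higher and 6 lower on library totals (21.9% and 57.5% of all transcripts), 1 and 3 on spike-in counts (15.9% and 46.2%), 2 and 5 on TPM (24.4% and 53.6%) and 7 and 0 on copies (47.6% and 13.5%). Between EN and ENR the split was 1 and 6 on library totals (22.1% and 52.4% of all transcripts) and 0 and 4 on spike-in counts (11.8% and 46%). It was 4 and 4 on TPM (28.8% and 43.6%) and 7 and 0 on copies (59.2% and 8.49%). For CV against ENR it was 0 and 3 with DESeq2 (27.9% and 30.5% of all transcripts), 4 and 2 on library totals (33.9% and 26%) and 5 and 2 on TPM (40% and 20.4%). It was 0 and 0 on spike-in counts (11.2% and 17.2%) and on copies (15.2% and 4.96%). The members' changes were small. Their median absolute log2 difference was 0.36 between EN and CV against 0.72 over all transcripts, 0.17 between CV and ENR against 0.37, and 0.45 between EN and ENR against 0.64. The 3 comparisons share libraries and are not independent of each other.

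**Figure D1:**
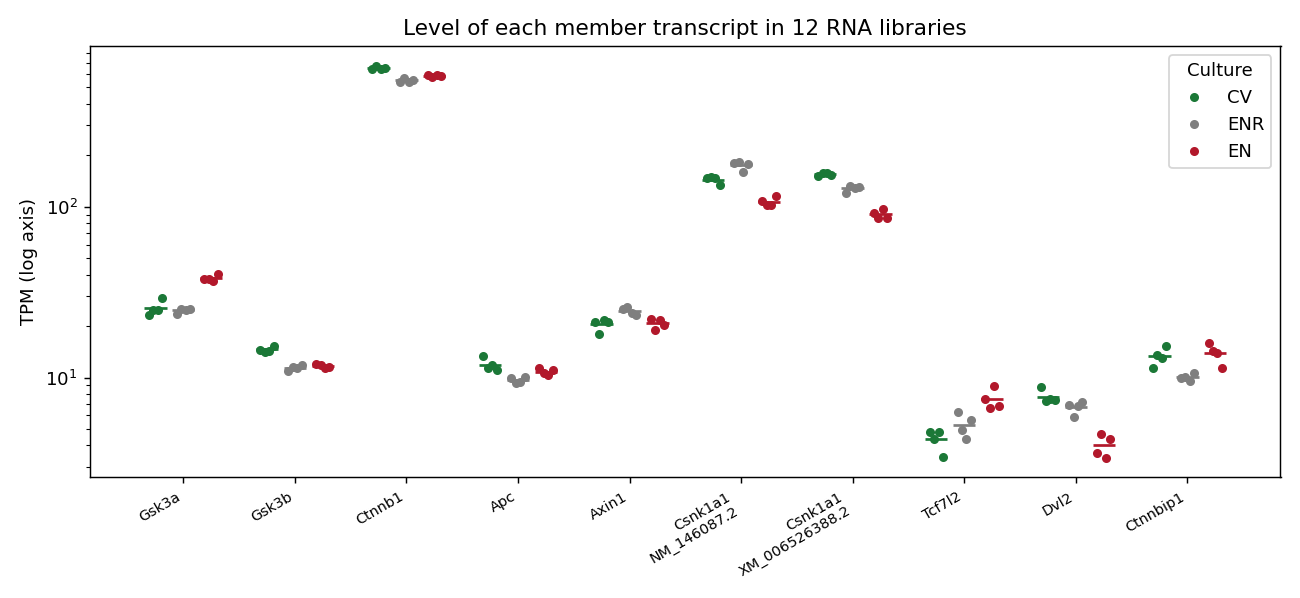
Level of each member transcript in TPM (vertical, log axis) in the 4 RNA libraries of each culture, with points for libraries and a line for the mean. Ctnnb1 lies between 539 and 672 TPM in all 12 libraries, and Gsk3a in EN lies above all libraries of CV and ENR.

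Per length, the members covered a wide range. Ctnnb1, which encodes β-catenin, stood first in every culture, with 652 ± 13.9 TPM (SD, n = 4) in CV, 551 ± 13.7 in ENR and 585 ± 8.01 TPM with EN. The 2 Csnk1a1 transcripts followed, with means between 90.3 and 175 TPM. Gsk3a (24.7 to 38.2 TPM by culture) and Axin1 (20.5 to 24.6 TPM) came next. Gsk3a and Axin1 were level in ENR, where 23.5 to 25.3 TPM of Gsk3a overlapped 23.3 to 26.0 TPM of Axin1, and Gsk3a lay above Axin1 without overlap in EN and in CV, where the lowest Gsk3a value was 23.2 TPM and the highest Axin1 value 21.8 TPM. Gsk3b, Apc and Ctnnbip1 held between 9.69 and 14.6 TPM and overlapped in part, and Tcf7l2 and Dvl2 held between 4.01 and 7.74 TPM. The scaffold RNAs were low beside that of Ctnnb1 in each library: the TPM of Ctnnb1 were 48.2 to 60.8 times those of Apc and 21.4 to 37.5 times those of Axin1.

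The Gsk3 kinases are near-identical in their catalytic domain and both phosphorylate β-catenin. Gsk3a (XM_006540258.1) had 23.2, 24.8, 24.9 and 29.4 TPM in the CV libraries, 23.5, 25.2, 25 and 25.3 in ENR and 37.9, 38.0, 36.6 and 40.6 in EN. All 4 EN libraries lay above all 8 others, while CV and ENR overlapped. It was 1.86-fold higher in EN than in CV (log2 0.90, SE 0.066, adjusted p = 4.19e-09, edgeR) and 1.73-fold higher than in ENR (log2 0.79, SE 0.066, adjusted p = 2.27e-08). Between CV and ENR the log2 difference was -0.11 (SE 0.069, adjusted p = 0.182). Gsk3a had the same sign in EN against CV and against ENR on all 5 scales, although with spike-in counts the adjusted p was 0.0232 and 0.187.

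Gsk3b (NM_019827.6) had 14.5, 14.2, 14.3 and 15.4 TPM in CV, 10.9, 11.5, 11.4 and 11.8 in ENR and 12, 11.9, 11.3 and 11.5 in EN. On the TPM scale CV lay above both other cultures, and ENR and EN overlapped. After TMM normalization its mean level was 75.3 CPM in the CV libraries, 65.5 CPM with ENR medium and 75.0 CPM with EN. It did not pass the test between EN and CV (log2 -0.01, SE 0.043, adjusted p = 0.879), and it was 1.15-fold higher in CV than in ENR (log2 0.20, SE 0.043, adjusted p = 0.000604) and in EN than in ENR (log2 0.20, SE 0.044, adjusted p = 0.00073). The sign between EN and ENR turned to -0.17 on library totals and -0.32 on spike-in counts, and the difference between EN and CV was -0.43 on library totals (adjusted p = 2.05e-07) and on spike-in counts (adjusted p = 0.0301), -0.30 on TPM and 0.73 on copies.

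A ratio within a library does not depend on how libraries are scaled. The TPM of Gsk3b relative to Gsk3a were 0.624, 0.570, 0.576 and 0.523 with CV medium, 0.463, 0.456, 0.454 and 0.465 with ENR, and 0.318, 0.314, 0.309 and 0.282 with EN. The cultures did not overlap, and on TPM Gsk3a exceeded Gsk3b in every library. By expected counts, which are not divided by transcript length, Gsk3b exceeded Gsk3a in every library, with ratios from 1.14 to 2.5. The mean was 0.573 ± 0.0413 (SD, n = 4) in CV, 0.460 ± 0.00532 in ENR and 0.306 ± 0.0163 with EN. The log2 ratio differed by -0.91 between EN and CV, 0.32 between CV and ENR and -0.59 between EN and ENR, each with p = 0.0286 by a two-sided exact permutation test, the smallest p that 4 against 4 libraries allow, and 0.0286 after Benjamini-Hochberg adjustment over the 3 tests. The summed TPM of both kinases were 40.1 ± 3.13 in CV, 36.1 ± 1.15 in ENR and 49.9 ± 1.67 in EN.

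**Figure D2:**
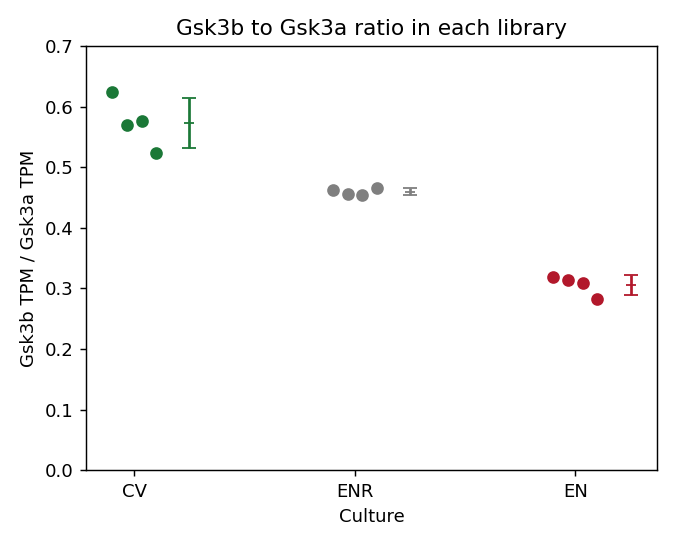
TPM of Gsk3b divided by TPM of Gsk3a (vertical, no unit) in each RNA library of the 3 cultures, with the mean and SD (n = 4) beside the points. The ratio spans 0.523 to 0.624 in CV, 0.454 to 0.465 in ENR and 0.282 to 0.318 in EN, with no overlap.

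The bases just before the annotated start of each kinase are shown because chromatin at both starts differed between the cultures. They are the 250 bases upstream in mm9, 5′ to 3′ on the strand of the gene, chr7:26022871-26023120 for Gsk3a (minus strand) and chr16:38088837-38089086 for Gsk3b (plus strand), and neither window overlaps an annotated exon. Capitals mark a match to CTTTGA, a core of the motif of Tcf/Lef factors, or to CAAAGT, a half-site core of Hnf4 factors, on either strand.
Gsk3a: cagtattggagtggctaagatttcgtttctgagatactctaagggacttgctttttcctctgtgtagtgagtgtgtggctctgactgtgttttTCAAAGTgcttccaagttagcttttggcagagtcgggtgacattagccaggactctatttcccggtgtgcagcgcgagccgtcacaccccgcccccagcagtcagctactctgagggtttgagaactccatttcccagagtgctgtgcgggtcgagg
Gsk3b: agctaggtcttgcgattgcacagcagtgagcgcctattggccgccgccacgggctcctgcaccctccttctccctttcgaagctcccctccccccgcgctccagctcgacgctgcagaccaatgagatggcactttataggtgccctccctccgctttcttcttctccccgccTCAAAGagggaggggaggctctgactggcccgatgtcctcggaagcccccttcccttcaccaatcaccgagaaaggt

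Both windows hold CTTTGA on the strand opposite to the gene, so that the printed strand reads TCAAAG, and they are the only members with it. Of 22365 windows of this length before protein-coding genes, 13.4% hold it. CAAAGT was found at Gsk3a, where it overlaps the other match by 5 letters, and at Dvl2, and 12.3% of all windows hold it. A match of so few letters is a description of the sequence and not a binding site. The Gsk3a window held 52.0% G and C and 9 CpG, and the Gsk3b window 62.0% and 15, against a median of 54.0% and 8 over all windows.

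Open chromatin (ATAC-seq) and histone marks were deposited as a normalized score per region, compared here with limma on log2(score + 1) at an adjusted p under 0.05. A region within 500 bp of an annotated start of a member is called a promoter region, of which there are 15, and 61 further regions lie within the genes. At promoter regions, ATAC was higher in EN than in CV at 3 and lower at none, where 35.2% of all regions tested differed. Between CV and ENR it was lower in CV at 3, against 15.8%, and between EN and ENR it was higher at 1 and lower at 2, against 24.0%. H3K27ac, a mark of active promoters and enhancers, was higher in EN than in CV at 4 promoter regions (7.03% of all regions differed), lower in CV than in ENR at 3 (1.83%), and higher in EN than in ENR at 1 (1.57%). H3K4me3, a mark of promoters, was higher in EN than in CV at 1 (4.90%). It differed at 0 between CV and ENR (3 at an unadjusted p under 0.05), where 1.13% of all regions did, and at 0 between EN and ENR (also 3 unadjusted), where 6.18% did. Scores were higher in total in EN than in CV, from 1622103 to 1760511 against 1345873 to 1406651 for H3K27ac. Regions at annotated starts, to which the promoter regions belong, differ more often than others in that mark. The share of them was 19.0% between EN and CV, 6.82% between CV and ENR and 3.72% between EN and ENR. In the same order it was 9.60%, 0.935% and 5.72% for H3K4me3 and 34.5%, 14.6% and 19.8% for ATAC.

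The promoter region of Gsk3a (chr7:26021839-26024274) showed the largest H3K27ac difference between EN and CV among the promoter regions. Its score was 82, 90 and 80 in CV, 153, 163 and 131 in ENR and 329, 290 and 345 with EN medium. The 3 cultures did not overlap. It was 3.79-fold higher in EN than in CV (log2 1.92, SE 0.19, adjusted p = 6.18e-08, limma), 1.11 higher on the log2 scale than in ENR (adjusted p = 0.00135), and 0.82 lower in CV than in ENR (adjusted p = 0.0184), where the median over all regions at annotated starts was 0.15, 0.11 and -0.06. Its ATAC score moved little, from 230 ± 12.5 (SD, n = 4) in CV to 270 ± 18.0 in EN (log2 0.23, adjusted p = 0.0414), a call that was lost without CV replicate 1, 2 or 3 or EN replicate 2 or 4 (adjusted p up to 0.127), and with quantile normalization the difference was -0.11. The H3K27ac calls were lost for EN against ENR without EN replicate 4 (adjusted p = 0.0583) and for CV against ENR without 1 of 4 libraries (adjusted p up to 0.0966, without ENR replicate 2). With quantile normalization the differences were 1.30 (2.46-fold) between EN and CV, 0.85 between EN and ENR and -0.45 between CV and ENR, the last with an adjusted p of 0.405. When the spread was not modelled against the mean score (no trend), EN against CV still passed (adjusted p = 0.0439), and EN against ENR and CV against ENR did not (0.264 and 0.361). In that setting 0.981%, 0.00106% and 0% of all regions passed in these comparisons. H3K4me3 at the region overlapped between the cultures (log2 0.39 between EN and CV, adjusted p = 0.554).

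At Gsk3b the longest promoter region (chr16:38088383-38089996) was higher in EN than in CV in 3 readouts. ATAC scored 346, 373, 337 and 342 in CV, 558, 513, 498 and 515 in ENR and 528, 596, 581 and 597 in EN. CV stood below both other cultures, which overlapped. The log2 difference was 0.72 between EN and CV (SE 0.066, adjusted p = 2.38e-07, limma), -0.57 between CV and ENR (adjusted p = 1.63e-05) and 0.14 between EN and ENR (adjusted p = 0.13). H3K27ac scored 54, 55 and 102 in CV, 185, 174 and 118 in ENR and 193, 141 and 175 in EN, a log2 difference of 1.31 between EN and CV (adjusted p = 0.000833) and -1.20 between CV and ENR (adjusted p = 0.00691, and 0.0882 without ENR replicate 1 or 0.0757 without ENR replicate 2). H3K4me3 was 0.61 higher in EN than in CV (adjusted p = 0.0162, and 0.0975 without EN replicate 2). Quantile normalization kept the ATAC calls, with 0.31 between EN and CV, and lost those of H3K27ac (0.81 and -0.90, adjusted p = 0.0645 and 0.114) and H3K4me3 (0.34, adjusted p = 0.24). Without the trend, the adjusted p was 0.134 and 0.258 for H3K27ac and 0.0617 for H3K4me3, where 0.981%, 0% and 4.4% of all regions passed. Over the same cultures Gsk3b RNA was 0.20 higher in CV than in ENR on the log2 scale, so RNA and promoter scores differed in opposite directions between CV and ENR.

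**Figure D3:**
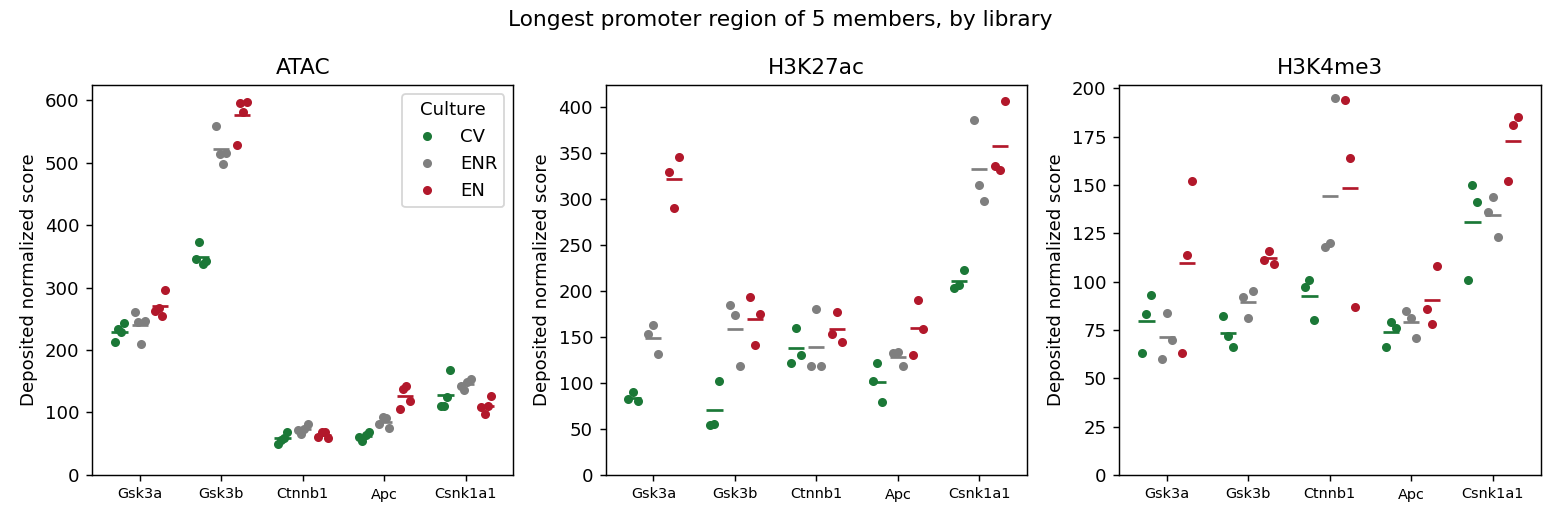
Deposited normalized scores (vertical, linear from 0) of ATAC, H3K27ac and H3K4me3 at the longest promoter region of 5 members, with points for libraries and a line for the mean of a culture. H3K27ac at Gsk3a rises from 80 to 90 in CV to 290 to 345 in EN, and ATAC at Gsk3b lies between 337 and 373 in CV and at 498 or above in the other cultures.

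Within the genes, ATAC differed between EN and CV at 16 of the 61 regions, 8 higher and 8 lower in EN, against 35.2% of all regions. The largest rise was in Gsk3b, at chr16:38191612-38191857, with scores of 2, 7, 6 and 5 in CV, 13, 11, 14 and 9 in ENR and 35, 39, 26 and 32 with EN medium. The 3 cultures did not overlap (log2 2.58 between EN and CV, SE 0.27, limma adjusted p = 1.11e-06). H3K27ac there stayed between 1 and 7 in all 9 libraries. The sequence is shown because the region covers a coding exon, and capitals mark its 107 coding bases, chr16:38191614-38191720, with the adjoining intron in lower case (mm9, plus strand).
Gsk3b exon region: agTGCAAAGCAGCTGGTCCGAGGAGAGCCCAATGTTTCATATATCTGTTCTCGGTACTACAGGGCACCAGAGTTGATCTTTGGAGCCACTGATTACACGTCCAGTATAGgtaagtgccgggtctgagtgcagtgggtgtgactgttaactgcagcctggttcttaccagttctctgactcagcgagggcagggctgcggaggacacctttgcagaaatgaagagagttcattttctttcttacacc
Neither CTTTGA nor CAAAGT lies in it. The largest fall was in Tcf7l2 at chr19:55867084-55867364, from 15, 18, 18 and 18 in CV to 5, 4, 3 and 4 in EN (log2 -1.88, SE 0.25, adjusted p = 1.52e-05). In the other comparisons ATAC within the genes was higher at 7 and lower at 4 in CV against ENR (15.8% of all regions differed), and higher at 5 and lower at 5 in EN against ENR (24.0%). H3K27ac within the genes differed between EN and CV at 2 regions, against 7.03% of all regions. It scored 5, 32 and 22 in CV and 63, 34 and 76 in EN at chr19:55926349-55926854 in Tcf7l2 (log2 1.75, adjusted p = 0.0296), and 3, 4 and 10 in CV and 1, 0 and 0 in EN at chr16:38197193-38197332 in Gsk3b (log2 -2.26, adjusted p = 0.0166).

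β-catenin binds cadherins at the cell surface as well as Tcf factors in the nucleus. Ctnnb1 (NM_007614.3) had 642, 672, 645 and 648 TPM in CV, 539, 568, 541 and 555 in ENR and 593, 577, 591 and 580 in EN. On TPM, CV stood above EN and EN above ENR without overlap. On TMM-normalized counts it was 1.12-fold higher in EN than in CV (log2 0.16, SE 0.03, adjusted p = 0.000143, edgeR), a sign that turned to -0.26 on library totals and on spike-in counts and to -0.15 on TPM. It was 0.25 higher in EN than in ENR (adjusted p = 1.94e-06), with -0.12 on library totals and -0.27 on spike-in counts. Its promoter region (chr9:120842201-120844102) passed no test in any readout, with ATAC scores of 50 to 68 in CV, 65 to 82 in ENR and 59 to 69 in EN. Within the gene, H3K27ac at chr9:120860782-120861146 scored 207, 131 and 72 in CV and 17, 65 and 30 in ENR (log2 1.92, adjusted p = 0.00621). It was the 1 region called in this comparison among the 61 within the genes, against 1.83% of all regions. Without the trend 0 of the 94215 regions tested passed, so this call was lost.

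The scaffolds differed from each other. Apc (NM_007462.3), the tumour suppressor that gathers the complex, had 13.3, 11.3, 11.9 and 11.1 TPM in CV, 9.88, 9.34, 9.46 and 10.1 in ENR and 11.4, 10.6, 10.3 and 11 in EN. It was 0.32 higher in EN than in ENR (adjusted p = 1e-04) and 0.18 higher in EN than in CV (adjusted p = 0.00732), where its CPM overlapped, where leaving out CV replicate 2, 3 or 4 or EN replicate 1, 2 or 4 lost the call (adjusted p up to 0.0271), and where library totals, spike-in counts and TPM gave -0.24, -0.22 and -0.12. Against ENR the sign was -0.05 on library totals and -0.19 on spike-in counts. At its promoter region, on chromosome 18 from 34380238 to 34381944, ATAC scored 60, 55, 64 and 68 in CV, 82, 93, 91 and 75 in ENR and 106, 138, 142 and 119 with EN medium. The cultures did not overlap, with log2 differences of 1.01 between EN and CV (adjusted p = 4.59e-06), -0.46 between CV and ENR (adjusted p = 0.0157, and 0.0569 without CV replicate 2 or 0.0577 without ENR replicate 2) and 0.56 between EN and ENR (adjusted p = 0.00276).

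Axin1 (XM_006523516.2), the scaffold in which Gsk3 and β-catenin meet, had 21.2, 17.9, 21.8 and 21.2 TPM in CV, 25.2, 26.0, 23.8 and 23.3 in ENR and 22, 19.1, 21.8 and 20.4 in EN. ENR stood above both other cultures on TPM. Axin1 was lower in CV than in ENR on TMM (log2 -0.41, SE 0.07, adjusted p = 9.03e-05), with a negative sign on all 5 scales. It was 0.34 higher in EN than in CV (adjusted p = 0.000447), which became -0.09 on library totals and -0.08 on spike-in counts. Its promoter region passed no test, and no other region lies in the gene. Axin2, the Wnt-induced paralog of Axin1, was lower in EN than in CV (log2 -5.86, adjusted p = 7.89e-16), with 69.3 ± 4.34 CPM (SD, n = 4) in CV, 80.7 ± 4.34 in ENR and 1.22 ± 0.333 in EN, from 6 to 8 counts per library.

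Csnk1a1 primes β-catenin for Gsk3. Its transcripts share sequence, so the division of reads between them is uncertain, and their sum is given as well. NM_146087.2 had 147, 149, 148 and 134 TPM in CV, 180, 183, 159 and 179 in ENR and 108, 103, 102 and 115 in EN, and XM_006526388.2 had 152, 157, 157 and 153, then 120, 133, 129 and 131, then 92.0, 86.5, 96.8 and 86.0. EN stood below both other cultures in each transcript on TPM. The sum, tested in a separate edgeR fit on counts summed per gene, was lower in EN than in CV (log2 -0.35, SE 0.041, adjusted p = 2.17e-09) and in ENR (log2 -0.42, SE 0.041, adjusted p = 6.33e-11). On mRNA copies both transcripts had positive signs, 0.72 and 0.35 against CV. Between CV and ENR the transcripts moved apart: NM_146087.2 was lower in CV (log2 -0.43, adjusted p = 4.43e-06), while XM_006526388.2 (0.12, adjusted p = 0.0252) and the sum (-0.06, adjusted p = 0.149) did not pass. NM_146087.2 made up 48.3% ± 1.12 (SD, n = 4) of the TPM of both in CV and 57.7% ± 2.01 in ENR. H3K27ac at the promoter region was 0.76 higher in EN than in CV (adjusted p = 0.000738), which became -0.02 with quantile normalization, and 0.65 lower in CV than in ENR (adjusted p = 0.0115, and 0.117 without ENR replicate 1). Of the paralogs, Csnk1e was lower in EN than in CV (log2 -1.57, adjusted p = 5.54e-08) and Csnk1d differed by 0.12 (adjusted p = 0.0191).

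**Figure D4:**
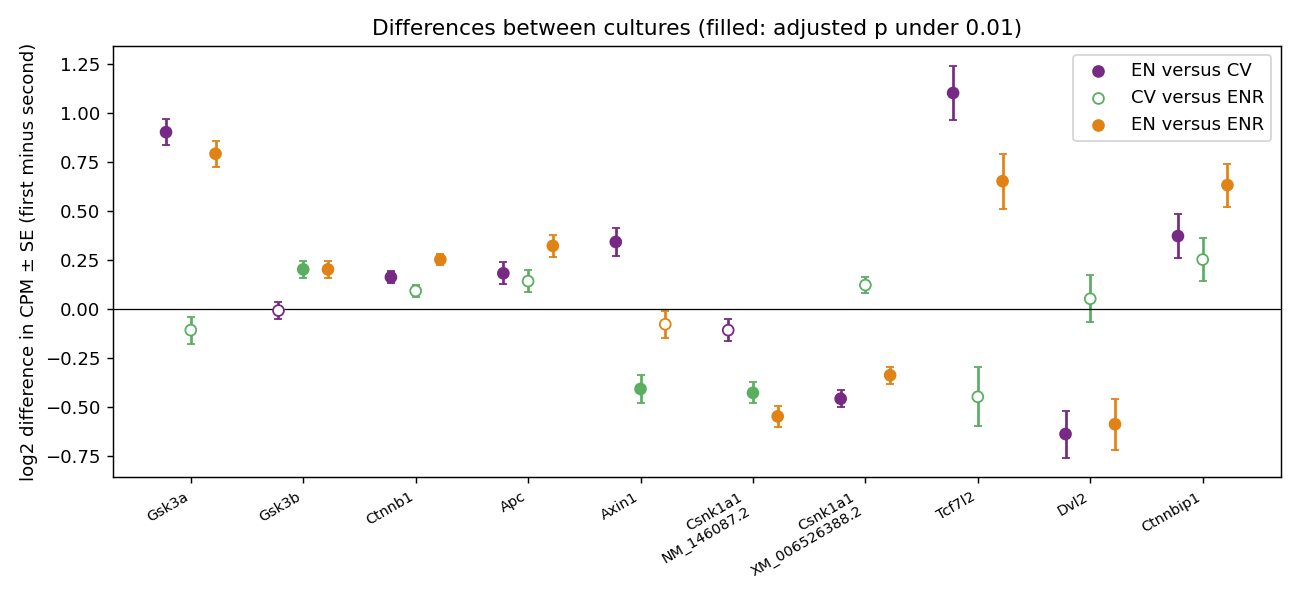
Log2 difference in TMM-normalized CPM with its SE (vertical) for each member transcript in the 3 comparisons, filled where the adjusted p is under 0.01. Tcf7l2 and Gsk3a reach 1.10 and 0.90 between EN and CV, and Dvl2 -0.64.

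Tcf7l2 (NM_001142920.1), the main Tcf factor of the intestinal epithelium, had the largest difference of any member between EN and CV on the TMM scale. It had 4.79, 4.39, 4.82 and 3.43 TPM in CV, 6.27, 4.91, 4.39 and 5.66 in ENR and 7.48, 6.67, 8.91 and 6.82 in EN, from 69 to 167 counts per library. EN lay above all other libraries. It was 2.14-fold higher in EN than in CV (log2 1.10, SE 0.14, adjusted p = 3.39e-06) and 1.56-fold higher than in ENR (log2 0.65, SE 0.14, adjusted p = 0.000551), with the same sign on all 5 scales, although against ENR the adjusted p was 0.073 on library totals and 0.55 on spike-in counts. H3K27ac at the promoter region chr19:55815737-55816447 scored 49, 14 and 42 in CV and 83, 62 and 87 in EN (log2 1.28, adjusted p = 0.0364), and leaving out any 1 of 5 of these 6 libraries raised the adjusted p above 0.05, up to 0.227 without CV replicate 4. At the neighbouring promoter region chr19:55816700-55818914, ATAC was lower in EN than in ENR (log2 -1.08, adjusted p = 0.00305). Of Lef1, Tcf7 and Tcf7l1, the other factors of the family, Lef1 was tested here, with 15 to 23 counts per library in CV and at most 1 in ENR and EN.

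Dvl2 and Ctnnbip1 moved in opposite directions. Dvl2 (NM_007888.3), which relays the receptor signal to the destruction complex, had 8.78, 7.28, 7.51 and 7.38 TPM in CV, 6.87, 5.86, 6.85 and 7.22 in ENR and 3.63, 4.65, 3.40 and 4.35 in EN, and EN lay below all other libraries. It was lower in EN than in CV (log2 -0.64, SE 0.12, adjusted p = 0.000232) and in ENR (log2 -0.59, SE 0.13, adjusted p = 0.000522), with a positive sign on copies, 0.06 and 0.40. Its paralogs went the other way between EN and CV: Dvl1 was 0.48 higher (adjusted p = 3.45e-07) and Dvl3 0.60 higher (adjusted p = 0.00329), although on library totals Dvl1 had 0.06 (adjusted p = 0.312) and Dvl3 0.18 (0.322), on spike-in counts 0.06 (0.758) and 0.19 (0.555), and on TPM 0.16 (0.0158) and 0.23 (0.0704), none of which passed. Ctnnbip1 (NM_001141930.1), an inhibitor of β-catenin and Tcf binding, had 11.4, 13.5, 13.1 and 15.4 TPM in CV, 9.99, 10.1, 9.58 and 10.6 in ENR and 16.0, 14.4, 13.9 and 11.4 in EN. It was 0.63 higher in EN than in ENR (adjusted p = 7.98e-05), with a positive sign on all 5 scales, although the difference was 0.26 on library totals (adjusted p = 0.0427) and 0.12 on spike-in counts (adjusted p = 0.629). It was 0.37 higher in EN than in CV (adjusted p = 0.00442), where the libraries overlapped, the call was lost without CV replicate 1 or 3 or EN replicate 1 or 2 (adjusted p up to 0.0214), and the sign was -0.05 on library totals and on spike-in counts.

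**Figure D5:**
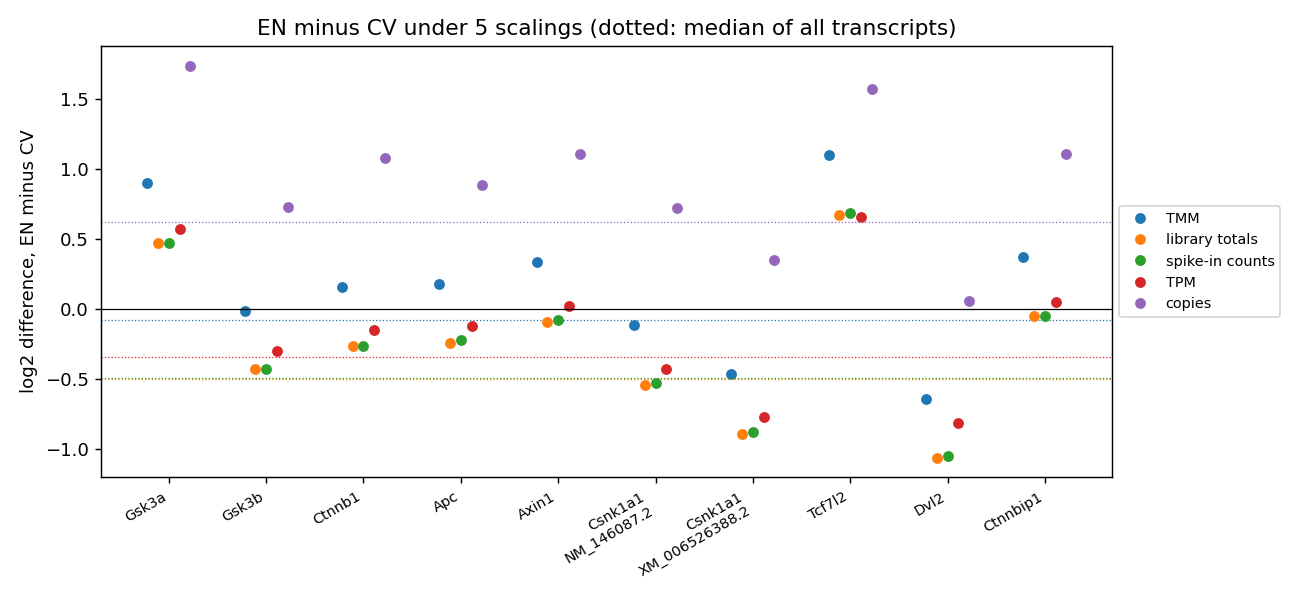
Log2 difference between EN and CV (vertical) of each member transcript on 5 scales, with a dotted line at the median of all transcripts on that scale. Gsk3a and Tcf7l2 lie above 0 on each scale, while Ctnnb1 and Apc lie above 0 on TMM and copies and below 0 on the others.

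H3K27me3, a mark of silenced chromatin, averaged at most 14.0 at any member promoter region and passed no test there in any comparison (limma, 0 also at an unadjusted p under 0.05), where 0.528%, 0.740% and 0.0127% of all regions differed between EN and CV, CV and ENR, and EN and ENR. On simulated scores with the spread of these libraries, 4-fold changes between EN and CV were set in regions with a mean score of at least 50. The same test found 2.0% of them for this mark, against 99.5% for ATAC, 86.0% for H3K27ac and 84.5% for H3K4me3. Few differences of that size in H3K27me3 could therefore be found even at such scores. Changes at lower scores, such as those of the member promoter regions in this mark, were not simulated. For H3K4me3, 56 of the 61 regions within genes were tested. It was higher in EN than in CV at 3 (4.90% of all regions differed), in CV than in ENR at 3 (1.13%) and in EN than in ENR at 12 (6.18%). It was lower at 0 in each comparison, and of all regions 4265 were higher and 545 lower in EN than in ENR. The called regions within genes averaged 4.67 or less in every culture, and several rest on scores of 0 against 1 in all libraries.

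Genes around the members were taken as lists, and their splits are to be read beside those of all transcripts between EN and CV: 35.2% higher and 41.2% lower on TMM, 21.9% and 57.5% on library totals, and 47.6% and 13.5% on copies. Of 27 transcripts of further destruction complex partners and β-catenin turnover, 11 were higher and 10 lower in EN than in CV on the TMM scale, 3 and 17 on library totals, 1 and 10 on spike-in counts, 3 and 15 on TPM and 17 and 2 on copies. The regulatory phosphatase subunit Ppp2r5d was 1.18 higher (adjusted p = 5.84e-10) with a positive sign on all 5 scales, and the scaffold subunit Ppp2r1b and the ubiquitin ligase component Skp1a were lower (log2 -1.03 and -0.96), with negative signs on all 5. Of 12 transcripts of receptors, ligands and upstream signalling, 4 were higher and 7 lower, and their median was -0.85, with 2 and 8 on library totals (median -1.27), 1 and 8 on spike-in counts, 2 and 8 on TPM and 4 and 4 on copies (median -0.02). Fzd5, a Wnt receptor, was 1.80 higher (adjusted p = 1.69e-15), and Wls, which carries Wnt ligands to the surface, was lower (log2 -4.12, adjusted p = 3.29e-16). Lgr5 and Lgr4, receptors of R-Spondin, were lower (log2 -5.55 and -0.76), and Lgr4 had 0.02 on copies.

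Of 13 transcripts of Wnt target genes, 12 were lower in EN than in CV and 1 higher, with a median of -4.43, and 12 were lower on each of the other 4 scales. Among them were Cd44 (log2 -4.95) and Slc12a2 (log2 -4.43). Between CV and ENR the targets were split, with 5 higher and 7 lower in CV: Cd44 was 2.02 higher in CV, and Lgr5 was lower (log2 -0.52). Of 24 transcripts of nuclear partners of β-catenin, 7 were higher and 12 lower in EN than in CV, with 5 and 16 on library totals, 3 and 14 on spike-in counts, 6 and 16 on TPM and 9 and 6 on copies. Among those lower were the ATPases Ruvbl2 (log2 -2.08) and Ruvbl1 (log2 -2.0), the exporter Xpo1 (log2 -1.81) and the deacetylase Hdac2 (log2 -1.77), each with a negative sign on all 5 scales. Of 13 transcripts of adhesion partners 5 were higher and 3 lower on TMM, 2 and 6 on library totals and on TPM, 2 and 5 on spike-in counts and 7 and 0 on copies. On TMM these included Pkp3 1.38 and Vcl 1.07 higher and Iqgap1 (log2 -0.74) and Vezt (log2 -0.58) lower, of which the last pair had positive signs on copies, 0.02 and 0.10. Of 28 transcripts of kinases related to Gsk3, 11 were higher and 7 lower on TMM, 6 and 13 on library totals, 5 and 7 on spike-in counts, 6 and 11 on TPM and 20 and 5 on copies, and the largest differences were in the cell cycle kinases Cdk1 (log2 -4.68), Cdk6 (log2 -2.22), Cdk2 (log2 -1.88) and Cdk4 (log2 -1.87), all lower.

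Among the transcripts whose pattern over the 12 libraries was closest to Gsk3a, by the root mean square difference of centred log2 CPM, were Galnt6 (0.043) and Smpd2 (0.065). The mean of Galnt6 was 173 CPM with CV, 191 CPM with ENR and 314 CPM with EN medium. Closest to Gsk3b were Sec61a1 (0.043), Taco1 (0.046) and Ap2b1 (0.050), and closest to Ctnnb1 were Tvp23b (0.025), Csnk2a1 (0.042) and Prr14l (0.045). Csnk2a1 encodes a catalytic subunit of casein kinase 2, with 387 CPM in CV, 352 CPM with ENR and 426 CPM with EN medium.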

How the data were processed

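RNA, ATAC-seq and ChIPmentation libraries were grouped by culture from their labels. The authors deposited expected counts per transcript, which kallisto 0.43.0 (version from the submitters' processing notes) estimated against transcripts whose proteins had been quantified, beside TPM values and mRNA copy numbers that they set from spike-ins. The chromatin tables, on mm9 (BWA, MACS2 2.0), list peaks merged over libraries. There the authors gave each ATAC or histone library a whole-number score per region, already normalized, and Hnf4g as raw read counts.

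Expected counts were rounded. The 9288 transcripts with a count above 0 in 4 or more of the 12 RNA libraries entered edgeR 4.0.16 (TMM, quasi-likelihood) in R 4.3.3, with Benjamini-Hochberg adjustment over all of them and calls under 0.01. When 200 of 9274 simulated transcripts differed 2-fold between EN and CV, 94.5% were found with 1 false call. Of 94469 regions, those scoring above 0 in 3 or more libraries of an assay were tested with limma 3.58.1 (trend, pseudocount 1) and called under 0.05. On simulated scores the estimated changes matched those set at mean scores of at least 50 (slopes 0.997 to 1.003), with 0 to 11 false calls. DESeq2 1.42.0 was an alternative. Start sites came from GENCODE vM1. Same-numbered ATAC libraries deviated together (r from 0.14 to 0.62 in 12 pairs), so the numbers pair them. The block changed no ATAC call at a promoter region.

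Members, lists and thresholds were chosen with earlier results of these data known. Named genes are all member transcripts, up to 4 called transcripts per list with the largest differences between EN and CV and a mean count of at least 100, paralogs, and the 3 nearest patterns, of which 1 is not reported here. Some histone libraries, the wild-type and Hnf4g knockout RNA and the proteins were not analysed here. P-values cover the spread between libraries. Depth of the region scores is unknown, and intervals on Hnf4g reads (95%, exact Poisson) cover counting error only.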

Additional observations from a re-analysis of the deposited data

Results flagged for a closer look

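In 78 groups of 4 libraries, 7 had 1 library far from the other 3, where chance gives about 1 group in 20. The gap to the nearest library, as a share of the group's range, was 0.846 for Axin1 in CV (17.9 TPM against 21.2 to 21.8), 0.847 for Dvl2 in CV (8.78 TPM against 7.28 to 7.51), 0.833 for Gsk3a in ENR (23.5 TPM against 25 to 25.3), and 0.867 in CV and 0.833 in ENR for the Csnk1a1 transcript NM_146087.2 (134 and 159 TPM, the lowest of each). For ATAC at the weakest Dvl2 promoter region (from 69819099 on chromosome 11) it was 1.0 in CV and 1.0 in EN, where means were 1.25 and 1.5.

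Reads of Hnf4g ChIPmentation, with 1 library per culture and no test, lay above 3 counts over the promoter regions of 5 members in CV, 8 in ENR and 9 in EN, from libraries of 84340, 352600 and 1816497 reads. These counts follow depth. In EN and ENR 3 reads were 1.65 and 8.51 RPM (reads scaled to library size). The median over regions at annotated starts was 17.1 and 11.3 RPM there, so a median region passes too. In CV 3 reads were 35.6 RPM against a median of 0. The share of all such regions above 3 reads was not computed. Tcf7l2 had the most in EN, 666 reads over 2 regions. The Gsk3a region had 95 reads in EN, 52.3 RPM (interval 42.3 to 63.9), against a median of 17.1 RPM over regions at annotated starts in that library. Reads were not adjusted for the length of a region, and the part of length in this excess was not tested. With 6 reads in CV, 71.1 RPM (26.1 to 155), and 14 in ENR, 39.7 RPM (21.7 to 66.6), so few reads limit any comparison between cultures.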

How the results depend on the processing

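Differences between cultures in the Gsk3b to Gsk3a ratio kept their direction with expected counts, copies and each library left out (-0.95 to -0.86, 0.27 to 0.36 and -0.61 to -0.55 for EN versus CV, CV versus ENR and EN versus ENR). With the replicate block and exact sign flips, -0.91, 0.32 and -0.59 had p = 0.125, the smallest that 4 pairs allow. Same-numbered RNA libraries did not deviate together (r from -0.09 to 0.07), and the block left 7, 3 and 9 member transcripts called, against 8, 3 and 9. Leaving out a library gave 6 to 8, 3 to 4 and 9 to 9.

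Scaling moved most. Spike-in counts called 4, 0 and 4 member transcripts. Between CV and ENR, library totals called 6, TPM with a pseudocount of 1 or 5 called 7 and 7, copies 0, and an adjusted p under 0.05 called 7. On library totals EN versus CV gave -0.26 for Ctnnb1, -0.24 for Apc, -0.09 for Axin1 and -0.05 for Ctnnbip1, and EN versus ENR -0.17 for Gsk3b, -0.12 for Ctnnb1 and -0.05 for Apc. Spike-in counts gave -0.26, -0.22, -0.08 and -0.05, and -0.32, -0.27 and -0.19, for the same, and -0.01 for Ctnnb1 and -0.05 for Dvl2 between CV and ENR. TPM with a pseudocount of 1 gave -0.15 for Ctnnb1 and -0.12 for Apc (EN versus CV) and 0.04 for Gsk3a (CV versus ENR), and with 5, -0.15, -0.09 and 0.04. Copies gave, for EN versus CV, 0.73 for Gsk3b, 0.72 for Csnk1a1 NM_146087.2, 0.35 for Csnk1a1 XM_006526388.2 and 0.06 for Dvl2. They gave 0.14 for Gsk3a between CV and ENR, and for EN versus ENR 0.94 for Axin1, 0.37 and 0.60 for the Csnk1a1 transcripts and 0.40 for Dvl2. Gsk3b between EN and CV, near 0, was 0.05 with DESeq2 and 0.05 with only the compared cultures, and -0.02 to 0.01 with a library left out. Dvl2 between CV and ENR ranged from -0.02 (without CV replicate 1) to 0.08 (without ENR replicate 4).

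Calls at promoter regions were sensitive, and so were calls over all regions. Percentages give the share of all regions called in the same setting, which was not computed for an adjusted p under 0.01. ATAC, CV versus ENR, called 1 at an adjusted p under 0.01, 1 without the trend (13.5%) and 1 to 4 with a library left out. It called 1 without CV replicate 2 (12.1%) or ENR replicate 2 (11.2%). H3K27ac, EN versus CV, called 1 without the trend (0.981%), 2 with quantile normalization (4.5%) and 0 with the replicate block (0%), where same-numbered histone libraries do not pair. CV versus ENR called 1 under 0.01, 0 without the trend (0%), 0 with quantile normalization (0.36%) and 0 with the block (0%). With a library left out it called 0 to 3 (0 without ENR replicate 1, 0.674%, and 1 without ENR replicate 2, 0.778%). EN versus ENR called 0 without the trend (0.00106%), 0 with the block (0%) and 0 to 1 with a library left out (0 without EN replicate 4, 0.18%). H3K4me3, EN versus CV, called 0 under 0.01, without the trend (4.4%), with quantile normalization (4.13%) and with the block (2.48%). With a library left out it called 0 to 2 (0 without EN replicate 2, 0.438%, and 2 without EN replicate 1, 6.05%). EN versus ENR called 0 to 1 (1 without EN replicate 1, 9.51%). Quantile normalization gave -0.11 for ATAC at Gsk3a and -0.02 for H3K27ac at Csnk1a1. The cause of these changes was not tested.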
